A study of Macaca mulatta with 13 samples.

Results

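Heat shock proteins, J-domain proteins and chaperonin subunits are the protein-folding machinery of the cell, and their transcripts were compared in thigh muscle of calorie-restricted and control monkeys. The members were chosen by gene symbol: all HSP90 genes, the numbered HSPA, HSPB, HSPD, HSPE and HSPH genes, the numbered DNAJA, DNAJB and DNAJC genes, and the subunits of the cytosolic chaperonin TRiC (TCP1 and CCT2 to CCT8 with CCT6A). Of 14132 genes that a probe set named alone, 55 were members, on 125 of 52766 probe sets. The tissue was vastus lateralis, the large lateral thigh muscle, of male rhesus monkeys (Macaca mulatta). There were 8 animals on calorie restriction (CR), aged 27 to 32 years, and 5 on the control diet, aged 27 to 30 years, and the 18.5 years of restriction that the design text gives are taken as those of the CR animals. One-colour Affymetrix arrays were used, 1 per animal, and their number limits the precision. Ages are known per diet and not per animal. The labels name no strain, allele or agent, and diet is the one contrast they state. They call the samples biological replicates.

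As background, HSP70 proteins bind unfolded stretches of client proteins in cycles of ATP hydrolysis. J-domain proteins deliver the clients and start the hydrolysis, and exchange factors such as the HSP110 proteins release the nucleotide. HSP90 receives part of these clients, kinases and steroid receptors among them, at a later stage. Small heat shock proteins hold unfolded proteins without ATP, and TRiC folds actin and tubulin in a closed chamber. In muscle these proteins serve myosin folding, the upkeep of the Z-disc and the removal of damaged sarcomere proteins, and the transcription factor HSF1 induces many of their genes under stress.

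Values are MAS5 signals, the brightness of a probe set on a linear scale, and differences are CR minus control on the log2 scale with the standard error from limma. Each gene is given by its brightest probe set, and levels of different genes are not compared because probe sets differ in how brightly they bind. Of the 55 members, 48 had a probe set in the brighter 50% of all probe sets by mean over the 13 arrays and were tested. The other 7 members, DNAJB7, DNAJB8, DNAJC6, DNAJC12, DNAJC22, HSPA4L and HSPB9, lay below that limit with signals of 3.35 to 228 in single animals, and they were not tested. HSPA1A, HSPA1B, HSPA5, HSPB1, HSPB2, HSPD1, HSPE1 and CCT3 were not analysed here, since the annotation used names no probe set for them alone. The classic inducible HSP70 pair, the main HSP70 of the endoplasmic reticulum and the mitochondrial chaperonin are therefore outside these results.

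Pairwise correlations of the 13 arrays ran from 0.834 to 0.940 over 26383 probe sets. Muscle fibre markers were present, with mean signals of 80220 for CKM, 99564 for MB and 123665 for TNNT3. Control replicate 4 stood apart, with a median correlation of 0.880 with the other arrays, where the others had 0.905 to 0.922. Its summed signal of 7 measured fibre markers was 296686, the lowest of the 13 animals (390987 to 673967 in CR animals and 339840 to 647934 in the other controls). Its summed signal of 9 measured markers of endothelium, pericytes and smooth muscle was 24469, against 5654 to 19666 in CR animals and 7744 to 18035 in the other controls, and its 6 matrix and fibroblast markers summed to 141637, against at most 99105 in any CR animal and 81766 in any other control. CR replicate 2 had the lowest fibre sum among CR animals and the highest adipocyte sum of all animals, 45223. The log2 3-prime over 5-prime ratio of the actin control probe sets, a sign of RNA quality, was 2.41 in control replicate 4, against 1.06 to 2.08 in CR animals and 1.47 to 1.68 in the other controls. The same ratio of the GAPDH control probe sets did not set this animal apart. It was 0.73, against 0.48 to 0.91 in CR animals and 0.30 to 0.76 in the other controls. Higher signals in CR were found for 4 of 7 fibre markers (median difference 0.28) and 0 of 8 tested endothelial, pericyte and smooth muscle markers (-0.48). The counts were 1 of 4 for adipocyte (-0.40), 3 of 6 for matrix (-0.014) and 2 of 6 for macrophage markers (-0.18). They were 0 of 2 for red blood cell (-0.19) and 0 of 2 for nerve markers (-0.56). None of these markers passed the test, and both measured lymphocyte markers were too dim to test. No measured marker of these lists was at the floor in all animals. The part of cell composition in the results below was not tested, and fewer cells of a type and less RNA per cell cannot be told apart in whole muscle.

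No chaperone gene passed the test of CR against control. In limma, with moderated variances and Benjamini-Hochberg adjustment over all 26383 probe sets, 0 of 48 members were past an adjusted p of 0.05, where the background was 0%, and the adjusted p of each member was 0.999. At an unadjusted p under 0.05 there was 1 member, HSP90AB1, higher in CR, where the background was 2.43% of probe sets in either direction, 1.25% higher and 1.18% lower. Both the count and its background moved with single animals left out. There were 0 members without control replicate 3 (background 2.47% of probe sets in either direction) and 4 without control replicate 1 (3.43%). There were 2 without control replicate 2 (3.16%) or without CR replicate 1 (3.32%), and 3 without control replicate 5 (3.67%) or without CR replicate 2 (4.65%). For no member were the groups free of overlap, where the background was 0.072%.

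The signal was higher in CR for 35 of the 48 members (72.9%), where the background was 48.1% of all probe sets tested, 49.8% of genes taken by their brightest probe set and 51.6% of the brighter 50% of tested probe sets. The median difference over the 48 members was 0.15, against -0.012 over all probe sets tested. The spread between animals of one diet in the members' median deviation was 0.13 (SD), and the shift was about the size of that SD. Without control replicate 4 the count was 32 of 48 and the median 0.073. For 43 of the 48 members, leaving out 1 animal moved the difference by over 1.5 times or turned its sign, and CCT5, DNAJC8, DNAJC9, HSP90AB1 and HSPH1 were the 5 exceptions. The share of all probe sets moved in this way was not computed, and a difference near 0 is moved by such a ratio easily. A typical 95% interval reached 0.45 to either side of the difference. For 29 members its upper end was 0.5 or more, so a rise of that size in CR lay within the error of these genes. The lower end was below -0.5 for some of the other members, DNAJC17 (-1.18) and HSPA9 (-0.71) among them. The plot of differences by family shows the members in order within each family.

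**Figure D1:**
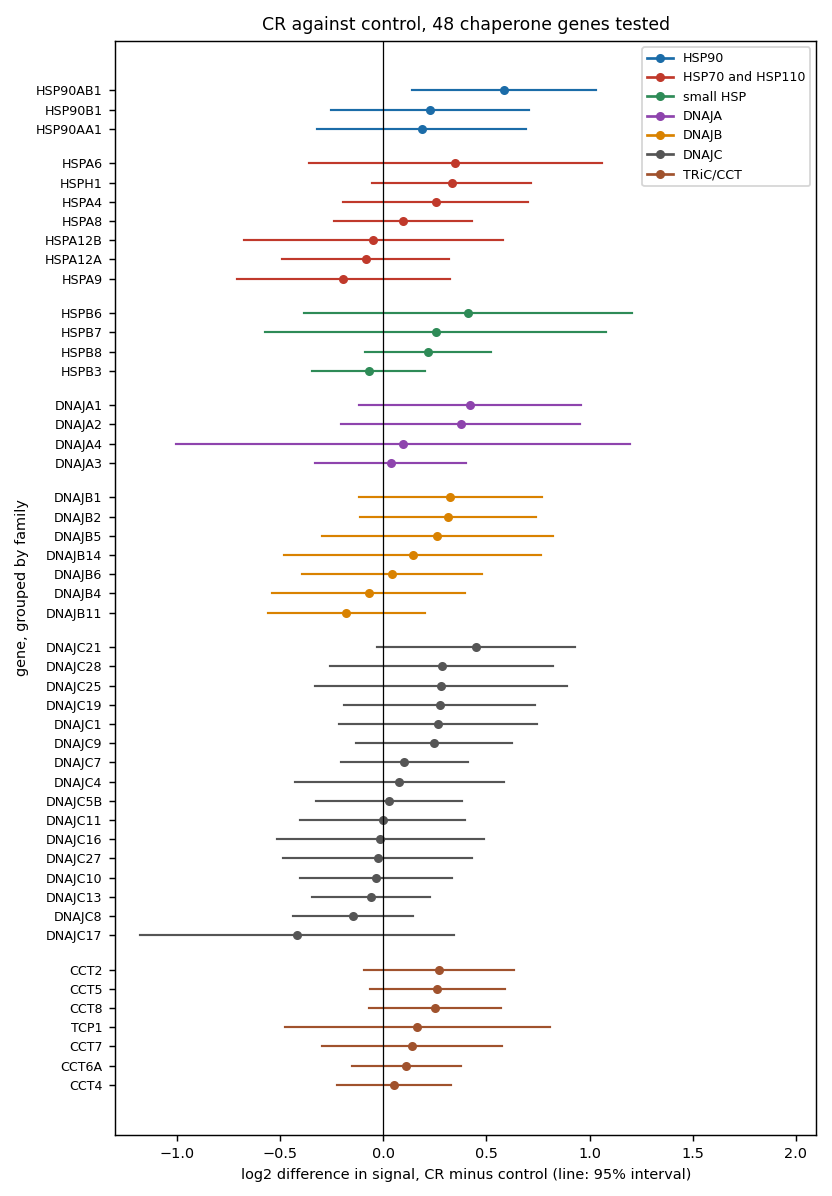
The log2 difference in signal (CR minus control, x axis) of each of the 48 tested members, grouped by family along the y axis, with points for the estimates and lines for their 95% intervals. The interval of HSP90AB1 lies above 0 and the other 47 intervals hold 0, while every HSP90, DNAJA and TRiC/CCT point lies to the right of 0.

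The 3 HSP90 genes were each higher in CR, with a median difference of 0.23 (SD between animals 0.33) that was 0.068 without control replicate 4. The signal of HSP90AB1, the constitutive cytosolic HSP90, was 21469.5 to 42030.3 with a median of 33534 in the 8 CR animals, against 25104, 25838, 13914, 16459.6 and 32663 in the 5 control animals. In CR, 4 of 8 animals lay above the highest control and none below the lowest, and CR replicate 2 was the lowest CR animal. The difference was 0.59 ± 0.21 (SE, 95% interval 0.14 to 1.03), with an unadjusted p of 0.013 and an adjusted p of 0.999 from limma. The gene had 4 tested probe sets, and the other 3 differed by 0.41 ± 0.18, 0.35 ± 0.21 and 0.55 ± 0.29. All 4 thus pointed the same way, though they report on the same animals. With single animals left out the difference of the brightest ran from 0.43 to 0.73.

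The signal of HSP90B1, the HSP90 of the endoplasmic reticulum, was 3961 to 7835 with a median of 6286 in the 8 CR animals, against 6519.6, 5965, 5095, 2683 and 7522 in the 5 control animals. The difference of 0.23 ± 0.23 rested on control replicate 4, the lowest animal, and was -0.015 without it, while it was 0.36 without control replicate 5. For HSP90AA1, the stress-inducible cytosolic HSP90, the signal was 376 to 1000.3 with a median of 685 in the 8 CR animals, against 572, 796, 460.2, 412 and 701 in the 5 control animals. The groups overlapped over most of their range, and the difference was 0.19 ± 0.24. It was measured by 1 probe set, and it was 0.068 without control replicate 4, 0.31 without control replicate 2 and -0.059 with the replicate number as a block.

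**Figure D2:**
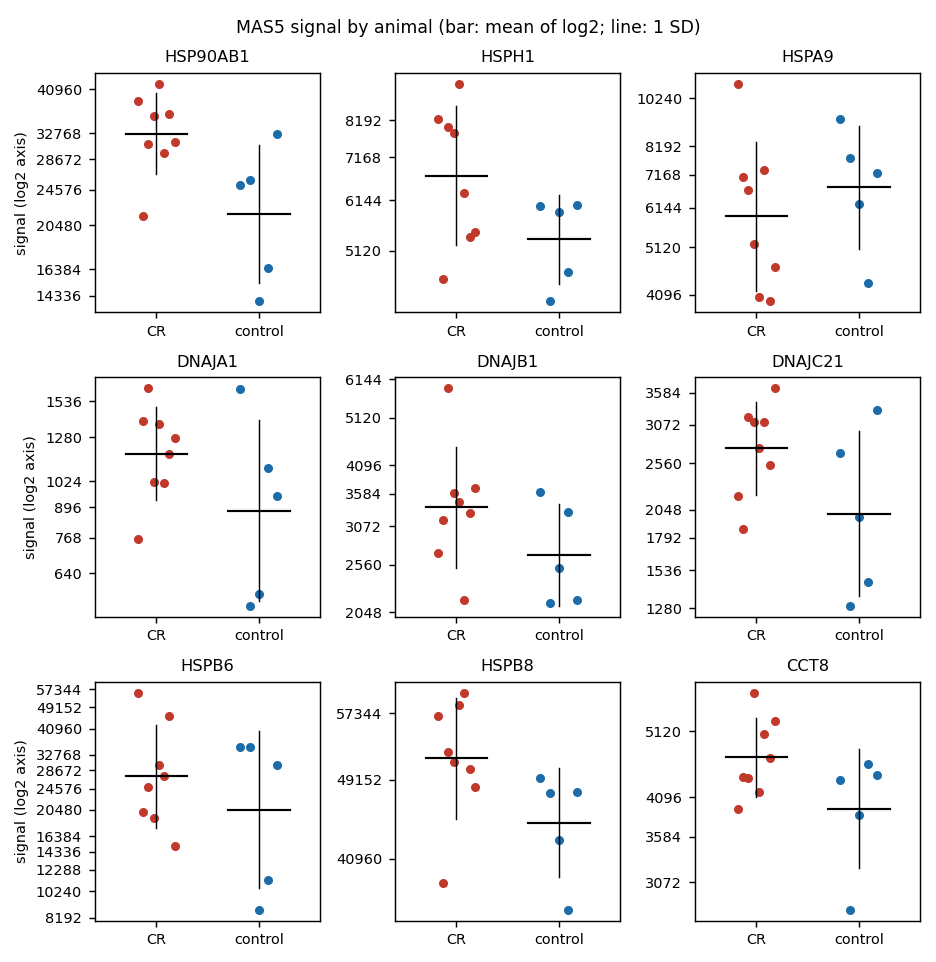
MAS5 signal (y axis, log2 scale, a separate range in each panel) of 9 members in each of 8 CR and 5 control animals, with points for animals, bars for the mean of the log2 values and vertical lines for 1 SD. The groups overlap in every panel, and CR replicate 2 is the lowest CR animal for HSP90AB1, HSPH1, DNAJC21 and HSPB8.

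The 7 tested genes of the HSP70 and HSP110 family were divided, with 4 higher and 3 lower in CR and a median difference of 0.095 (SD between animals 0.16). With single animals left out that median was as low as 0.024 (control replicate 5) and as high as 0.16 (CR replicate 2). The signal of HSPH1, an HSP110 exchange factor and a known HSF1 target, was 4615 to 9342 with a median of 7067 in the 8 CR animals, against 6016, 4262, 5889.9, 4736 and 6028 in the 5 control animals. CR animals lay above the highest control in 5 of 8 cases. The difference was 0.33 ± 0.18 (95% interval -0.053 to 0.72, unadjusted p = 0.0862 and adjusted p = 0.999 from limma), and its other 3 tested probe sets gave 0.18 to 0.34. The mean of all its probe sets, 2 dim ones included, gave 0.071. The signal of HSPA4, a further exchange factor of the HSP110 type, was 3171 to 7362 with a median of 4731 in the 8 CR animals, against 4852, 4328, 3853, 2816 and 5316 in the 5 control animals. CR replicates 1, 4 and 6 lay above every control, and control replicate 4 below every CR animal. This difference was 0.25 ± 0.21, and 0.11 without control replicate 4. The other 5 tested probe sets of HSPA4 ran from -0.70 to 0.28, and the mean of all its probe sets gave 0.030.

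The signal of HSPA8, the constitutive cytosolic HSC70, was 21268 to 38703 with a median of 29776 in the 8 CR animals, against 30648, 31940.1, 23008, 23903 and 27903 in the 5 control animals. The groups overlapped, with 3 CR animals above the highest control and 1 below the lowest, and the difference was 0.095 ± 0.16 (95% interval -0.24 to 0.43). Its lowest value with 1 animal left out was 0.034 (control replicate 3) and its highest 0.16 (CR replicate 2). The interval of this probe set leaves out a change of 0.5 in either direction. The other 2 tested probe sets of HSPA8 gave 0.18 ± 0.21 and 0.31 ± 0.36. Their errors are larger, so a rise of 0.5 is not left out for the gene as a whole. For HSPA9, the HSP70 of the mitochondrial matrix known as mortalin, the signal was 3973 to 10938 with a median of 5947 in the 8 CR animals, against 9279.5, 7745, 6267, 4328 and 7226 in the 5 control animals. CR replicate 1 lay above every control and 2 CR animals below every control. This was one of the 4 members with the most negative difference, -0.19 ± 0.24, with -0.35 without control replicate 4 and -0.079 without control replicate 1. A further tested probe set of HSPA9 gave 0.032. The mean of its probe sets, a dim untested one included, gave 0.24. Its direction thus depended on the probe set.

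HSPA6, a strictly stress-induced HSP70 in humans, differed by 0.35 ± 0.34, with signals of 114 to 231 with a median of 211 in CR animals, against 143, 331, 142, 183 and 60.9 in control animals. Without control replicate 5, the lowest animal, the HSPA6 difference was 0.024, and without control replicate 2, the highest, it was 0.64. HSPA12A and HSPA12B, divergent HSP70 relatives, differed by -0.086 ± 0.19 and -0.048 ± 0.30. Control replicate 4 had the highest signal of both, and without it they differed by 0.098 and 0.24, with the sign turned. HSPA12B is known as an endothelial gene, and this animal also had the highest endothelial marker sum. The part of that in the gene's value was not tested. The sign of HSPA12B also turned without CR replicate 1, CR replicate 4 or CR replicate 8.

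J-domain proteins of class A, which resemble bacterial DnaJ along their whole length, had higher signals in CR for 4 of 4 genes, with a median difference of 0.23 (SD between animals 0.34). The signal of DNAJA1, a cytosolic partner of HSC70, was 764 to 1641 with a median of 1227 in the 8 CR animals, against 1639, 543, 575, 1096 and 947 in the 5 control animals. Of the CR animals, 1 lay above the highest control, and 2 control animals, replicates 2 and 3, lay below every CR animal. The difference was 0.42 ± 0.25 (unadjusted p = 0.119 and adjusted p = 0.999 from limma), and its other tested probe sets gave 0.32 and 0.51. It was 0.24 without control replicate 2, 0.26 without control replicate 3 and 0.64 without control replicate 1. For DNAJA2, a further cytosolic partner of HSC70, the signal was 2259.7 to 5312 with a median of 2744 in the 8 CR animals, against 1969.8, 4237, 2761, 1339 and 2639 in the 5 control animals. CR replicates 1 and 3 lay above every control, and control replicates 1 and 4 below every CR animal. Its difference was 0.38 ± 0.27, with 0.16 without control replicate 4 and 0.58 without control replicate 2.

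DNAJA4 varied most among animals of all 48 members, with a residual SD of 1.09. Its signal was 670.1 to 11248 with a median of 4310.2 in the 8 CR animals, against 5146, 3891, 2468, 1542 and 6102 in the 5 control animals. CR replicate 8 was the lowest and CR replicate 1 the highest of the 13 animals. The difference was 0.094 ± 0.52, its other probe sets gave -0.32 and -0.24, and the sign turned without control replicate 3, control replicate 4, CR replicate 1 or CR replicate 6. DNAJA3, a mitochondrial J-domain protein, differed by 0.035 ± 0.17, and its sign turned without control replicate 3, control replicate 4 or CR replicate 6. The class A median without control replicate 4 was 0.026.

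Class B J-domain proteins had higher signals in CR for 5 of 7 tested genes, with a median difference of 0.14 (SD between animals 0.16), or 0.023 without control replicate 4. The signal of DNAJB1, the main inducible cytosolic HSP40, was 2171 to 5885 with a median of 3354 in the 8 CR animals, against 3613, 2136, 2526, 3284 and 2175 in the 5 control animals. CR replicate 3 was the highest animal and CR replicate 6 the lowest CR animal. The difference was 0.32 ± 0.21 (unadjusted p = 0.141 and adjusted p = 0.999 from limma), its other tested probe set gave -0.079 and the mean of both 0.12. Without CR replicate 3 it was 0.21. The signal of DNAJB2, which carries ubiquitin-binding motifs, was 1204 to 2563 with a median of 1575 in the 8 CR animals, against 1928, 1302, 938, 1555 and 1108 in the 5 control animals. Control replicates 3 and 5 lay below every CR animal. Its difference of 0.31 ± 0.20 was measured by 1 probe set, with 7 of 8 CR signals above the control mean, and it was 0.19 without control replicate 3.

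DNAJB6, a suppressor of protein aggregation whose mutations cause a limb-girdle muscular dystrophy in humans, had the smallest difference in size of the tested class B genes. Its signal was 2172 to 4389 with a median of 3566 in the 8 CR animals, against 3557, 3897, 2769, 2015 and 4496 in the 5 control animals. The difference was 0.042 ± 0.21 (95% interval -0.39 to 0.48), and its sign turned without control replicate 3, control replicate 4 or CR replicate 6. The other 3 tested probe sets of DNAJB6 were each lower in CR, from -0.17 to -0.028. The signal of DNAJB11, a J-domain partner of HSP70 in the endoplasmic reticulum, was 669 to 1215 with a median of 945 in the 8 CR animals, against 785, 1019, 1151, 1423 and 885 in the 5 control animals. Control replicate 4 lay above every CR animal, and 2 CR animals lay below every control. It was among the 4 members with the most negative differences, with -0.18 ± 0.18 and a further probe set at -0.16. Without control replicate 4, the highest animal, it was -0.062, and without control replicate 1 it was -0.28. The values were 0.26 ± 0.26 for DNAJB5 (0.023 without control replicate 4), 0.14 ± 0.29 for DNAJB14 (0.45 without control replicate 4, and -0.11 without control replicate 1) and -0.071 ± 0.22 for DNAJB4, whose sign turned without control replicate 1 or control replicate 3.

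Class C, which holds J-domain proteins of many unrelated tasks, was divided, with higher signals in CR for 9 of 16 tested genes and a median difference of 0.051 (SD between animals 0.16), which was 0.014 without CR replicate 6 and 0.14 without control replicate 3. The signal of DNAJC21, which acts in the making of the large ribosomal subunit, was 1865 to 3659 with a median of 2933 in the 8 CR animals, against 2685, 1295, 1981, 1450.3 and 3293 in the 5 control animals. Of the CR animals 7 of 8 lay above the control mean, yet control replicates 1, 3 and 5 lay within the CR range. Its difference of 0.45 ± 0.23 was the next largest after HSP90AB1 (95% interval -0.032 to 0.93, unadjusted p = 0.0654 and adjusted p = 0.999 from limma), and its other tested probe set gave 0.29. Without control replicate 2 it was 0.29. For DNAJC9, a histone H3-H4 chaperone, the signal was 1596 to 2762 with a median of 2119.7 in the 8 CR animals, against 2473, 1822, 1769, 1597 and 1443 in the 5 control animals. Control replicate 5 lay below every CR animal, and the other controls lay within the CR range. The difference was 0.24 ± 0.18, while a further probe set gave -0.085.

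At the lower end, the signal of DNAJC17, which is linked to the spliceosome, was 74.3 to 316 with a median of 222 in the 8 CR animals, against 211, 260.0, 179, 286 and 329.7 in the 5 control animals. CR replicates 4 and 5 lay far below the other CR animals, and the remaining CR animals lay within the control range. The difference was -0.42 ± 0.36, or -0.23 without CR replicate 4 and -0.26 without CR replicate 5. The signal of DNAJC8, a further protein linked to splicing, was 2191 to 3333 with a median of 2674 in the 8 CR animals, against 2892, 3067, 3007, 3247 and 2645 in the 5 control animals. Its difference was -0.15 ± 0.14, with 4 of 8 CR animals below the lowest control, while its dim other probe set gave 0.69 ± 0.32 (unadjusted p = 0.0437 and adjusted p = 0.999 from limma). DNAJC13, an endosomal protein, was among the 3 members that varied least, with a residual SD of 0.16, and it differed by -0.058 ± 0.14. Its sign turned, to 0.0033, without control replicate 5.

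The other class C genes ran from -0.037 to 0.28. The mitochondrial genes DNAJC28 and DNAJC19 (DNAJC19 belongs to the import motor) differed by 0.28 ± 0.26 and 0.27 ± 0.22, and DNAJC19 by 0.087 without control replicate 4. DNAJC28 differed by 0.15 when control replicate 2 was left out and by 0.53 when control replicate 5 was. DNAJC25 differed by 0.28 ± 0.29, or 0.017 without control replicate 4, and DNAJC1, of the endoplasmic reticulum membrane, by 0.27 ± 0.23, or 0.14 without CR replicate 4. DNAJC7, with repeats that bind both HSP70 and HSP90, differed by 0.10 ± 0.15, DNAJC4 by 0.076 ± 0.24 and DNAJC5B by 0.026 ± 0.17. The remaining differences were -0.037 ± 0.17 for DNAJC10, a disulfide reductase of the endoplasmic reticulum, -0.027 ± 0.22 for DNAJC27, -0.014 ± 0.24 for DNAJC16 and -0.0036 ± 0.19 for DNAJC11, a mitochondrial protein linked to cristae. Those below 0.1 in size, from DNAJC4 to DNAJC11, each turned sign when 1 of several animals was left out.

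Small heat shock proteins had higher signals in CR for 3 of 4 tested genes, with a median difference of 0.24 (SD between animals 0.39), or 0.046 without control replicate 4. The signal of HSPB6, a muscle protein also called HSP20, was 15115 to 55701 with a median of 26184 in the 8 CR animals, against 34933, 34967, 8745, 11310.0 and 29999 in the 5 control animals. Control replicates 3 and 4 lay below every CR animal, and the other 3 controls lay within the CR range. The difference was 0.41 ± 0.38 and the residual SD 0.77, among the 3 largest of the members. Without control replicate 3 it was 0.10, without control replicate 4 it was 0.20, and its other probe set gave 0.49. For HSPB7, a heart and skeletal muscle member of the family, the signal was 10275 to 38962 with a median of 19942 in the 8 CR animals, against 22452, 33627, 11342, 6553 and 25845 in the 5 control animals. Control replicate 4 lay below every CR animal, and the others lay within the CR range. Its difference was 0.25 ± 0.39, or -0.090 without control replicate 4 and 0.50 without control replicate 2. Control replicates 3 and 4 also had the lowest fibre marker sums of the 13 animals, 339840 and 296686, and the part of this in the 2 genes was not tested.

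The signal of HSPB8, which works with BAG3 in the clearance of damaged sarcomere proteins, was 38697 to 60190.0 with a median of 51829 in the 8 CR animals, against 49349, 47721, 42748, 36359 and 47779.7 in the 5 control animals. In CR, 6 of 8 animals lay above the highest control, while CR replicate 2 lay near the lowest control. Its difference was 0.22 ± 0.14 (95% interval -0.090 to 0.52, unadjusted p = 0.155 and adjusted p = 0.999 from limma), and it was 0.14 without control replicate 4. A dimmer probe set gave -0.20, and the mean of both gave 0.0098. The signal of HSPB3, which forms a complex with HSPB2 in muscle, was 3733 to 5506 with a median of 4702 in the 8 CR animals, against 5176, 4581, 5202, 5196 and 4338 in the 5 control animals. The groups overlapped, with 1 CR animal above and 2 below every control. It was one of the most even members, with a residual SD of 0.16, and its difference was -0.072 ± 0.13, or -0.11 when control replicate 5 and -0.027 when CR replicate 8 was left out.

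The TRiC chaperonin had higher signals in CR for 7 of 7 measured subunits, with a median difference of 0.16 (SD between animals 0.15), or 0.092 without control replicate 4. The signal of CCT5, the epsilon subunit, was 8888 to 13485 with a median of 11154 in the 8 CR animals, against 9158, 11485, 7368, 8088 and 11171 in the 5 control animals. Control replicates 3 and 4 lay below every CR animal, and 4 CR animals lay above every control. The difference was 0.26 ± 0.15 (95% interval -0.066 to 0.59, unadjusted p = 0.11 and adjusted p = 0.999 from limma), and the control mean was exceeded by 7 of 8 CR animals. The signal of CCT8, the theta subunit, was 3939 to 5842 with a median of 4538 in the 8 CR animals, against 4339, 2796, 3858, 4579.7 and 4419 in the 5 control animals. All 8 CR animals lay above the control mean, which control replicate 2 lowered, though CR replicate 1 all but equalled it (log2 11.9435 against 11.9433). The difference was 0.25 ± 0.15, or 0.13 without control replicate 2.

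CCT2, the beta subunit, was covered by 9 tested probe sets. The signal of the brightest was 5272 to 9739.9 with a median of 7889 in the 8 CR animals, against 6024, 6848, 8049.9, 6092 and 4890.1 in the 5 control animals. Control replicate 5 lay below every CR animal, and 3 CR animals lay above every control. Its difference was 0.27 ± 0.17, and the other 8 probe sets ran from -0.15 to 0.51. Without control replicate 5 it was 0.18, and the mean of all its probe sets, a dim untested one included, gave 0.17. TCP1, the alpha subunit, varied most within the complex by its brightest probe set. Its signal was 5048 to 11243 with a median of 7142 in the 8 CR animals, against 12023, 6125, 4750.0, 3155 and 11374 in the 5 control animals. Control replicates 1 and 5 lay above every CR animal, and control replicates 3 and 4 below every one. The difference was 0.16 ± 0.30 with a residual SD of 0.61, and it was -0.10 without control replicate 4, or 0.38 with control replicate 1 left out instead. The other 2 tested probe sets of TCP1 had smaller errors, at 0.16 ± 0.15 and 0.20 ± 0.14. CCT6A, the zeta subunit, was the most even of all 48 members, with a residual SD of 0.14. Its signal was 6728 to 10166 with a median of 8087 in the 8 CR animals, against 7756, 7491, 8106, 7135 and 7212 in the 5 control animals. Of the CR animals 4 lay above and 1 below every control. The difference was 0.11 ± 0.12, or 0.066 without CR replicate 1, and a further probe set gave -0.14. CCT4 and CCT7, the delta and eta subunits, differed by 0.054 ± 0.13 and 0.14 ± 0.21, and without control replicate 4 by 0.0051 and -0.047.

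By compartment, 10 members were assigned to an organelle from general knowledge of the proteins, and the others were not assigned. Of the 4 listed for the endoplasmic reticulum (HSP90B1, DNAJB11, DNAJC1 and DNAJC10), 2 were higher in CR, with a median of 0.095. Of the 6 listed for the mitochondrion (HSPA9, DNAJA3, DNAJC4, DNAJC11, DNAJC19 and DNAJC28), 4 were higher, with a median of 0.056. Of the 38 members not assigned, which may include further organelle proteins, 29 were higher, with a median of 0.17. The difference between compartments was not tested.

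Within a gene, probe sets often disagreed. Of 30 members with more than 1 tested probe set, 13 had all of them higher in CR, 3 had all lower and 14 were mixed. Over all 102 tested member probe sets 70 were higher, where the background was 48.1%. Their median difference was 0.13, against -0.012 over all probe sets tested. In limma 4 of the 102 (3.92%, background 2.43%) had an unadjusted p under 0.05 (HSP90AB1 with 2 probe sets, DNAJA1 and DNAJC8, higher in CR in each case). Probe sets of 1 gene report on the same animals and are not separate observations. HSP90AB1, HSPH1 and DNAJA1 were among those with all tested probe sets higher, and the mixed genes included CCT2, DNAJB1, HSPA4 and HSPB8.

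For 42 of the 48 members the difference between the diets was smaller in size than the gene's own residual SD between animals, and for 6 it was larger (HSP90AB1, DNAJC21, HSPH1, CCT5, CCT8 and HSPB8). The matching share over all probe sets was not computed. The number of members above their 13-animal mean was 16 in CR replicate 2 and 22 to 35 in the other CR animals, against 28, 21, 16, 16 and 25 in the 5 controls. The median deviation of the 48 members ran from -0.21 in CR replicate 2 to 0.18 in CR replicate 4, against 0.049, -0.046, -0.18, -0.25 and 0.057 in the controls. Control replicate 4 had the lowest signal of all 13 animals for 13 members and the highest for 4. Other animals had the lowest for 0 to 9 members and the highest for 0 to 7. These shares were not computed over all probe sets, so they are not specific to the members. The HSP90 median deviation of -0.76 and the class A median of -0.84 in control replicate 4 were well below those of the CR animals, whose lowest were -0.40 and -0.28. The SD was larger in controls than in CR for 29 of 48 members (60.4%), where 55.8% of all probe sets had a larger SD in controls, and for 22 members without control replicate 4, where the share over all probe sets was 45.8%.

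**Figure D3:**
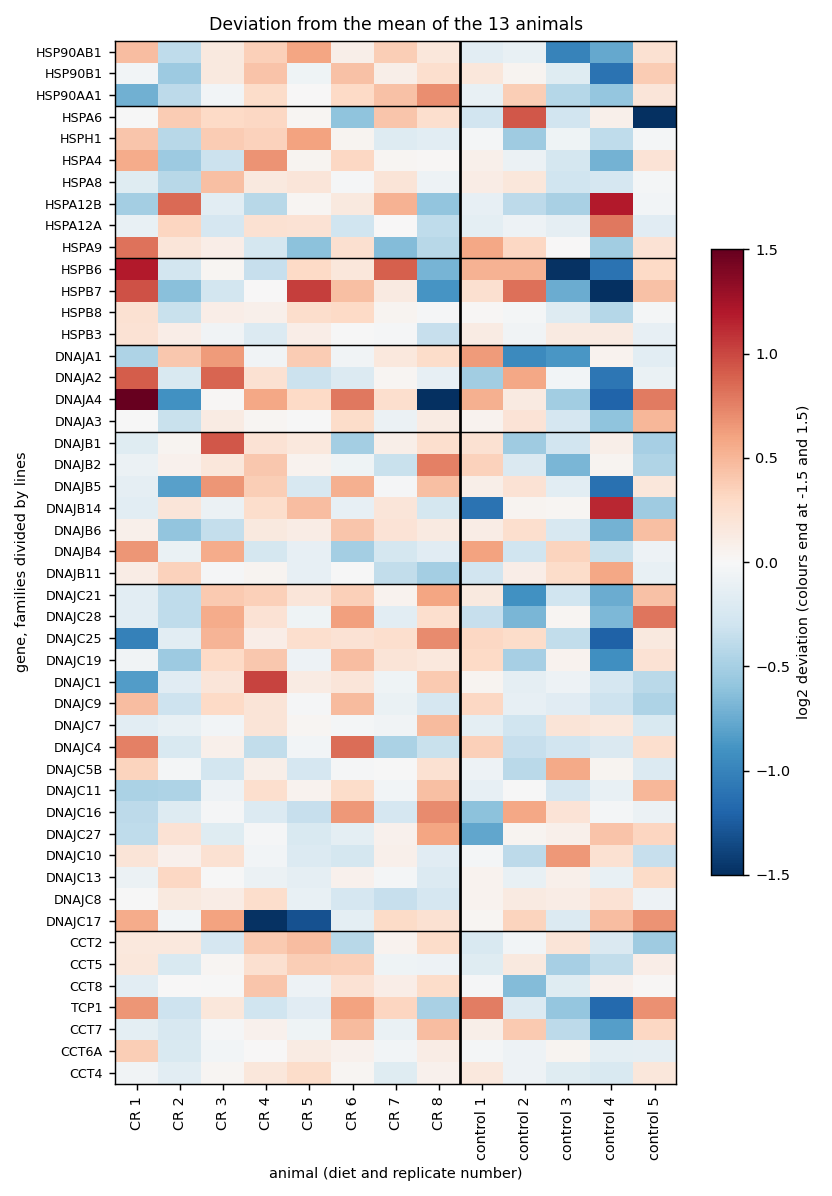
Deviation of the log2 signal from the mean of the 13 animals (colour) for the 48 tested members (rows, families divided by lines) in each CR animal and then each control animal (columns). The family medians of HSP90, small heat shock and TRiC/CCT genes are below the mean in CR replicate 2 and in control replicates 3 and 4, and DNAJA4 runs from far above the mean in CR replicate 1 to far below it in CR replicate 8.

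The median difference of each family was above 0 with each animal left out in turn, and 5 of the 7 families had their lowest median without control replicate 4.

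**Figure D4:**
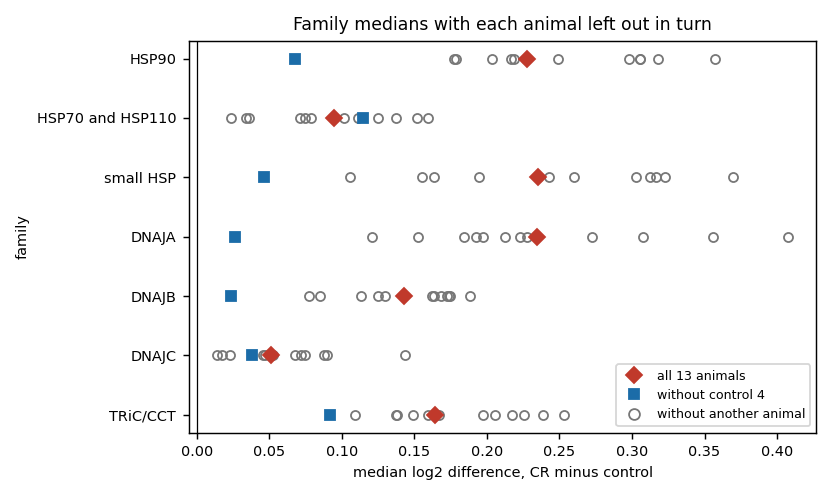
Median log2 difference (CR minus control, x axis) of each family (y axis), with a red diamond for all 13 animals, a blue square for the value without control replicate 4 and grey circles for the values without each other animal. All values lie above 0, and without control replicate 4 the medians are 0.068 for HSP90, 0.046 for small heat shock proteins, 0.026 for DNAJA and 0.023 for DNAJB.

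Whether members varied together was examined for 7 pairs, as deviations from the diet means over 13 animals with permutation tests. None passed after adjustment over the 7 pairs. HSPH1 and HSP90AB1 had Pearson's r = 0.44 (permutation p = 0.130, adjusted p = 0.499) and Spearman's rho = 0.39 (permutation p = 0.183, adjusted p = 0.596). Without the 2 animals farthest from the median of HSPH1, r was 0.36, and in the 8 CR animals alone it was 0.75 (exact permutation p = 0.0254, adjusted p = 0.178). HSP90AA1 and HSP90AB1 had r = 0.41 (permutation p = 0.162, adjusted p = 0.499) and rho = 0.38 (permutation p = 0.204, adjusted p = 0.596). The value moved with the animals included, with r = 0.76 without CR replicates 1 and 8 (permutation p = 0.0089, adjusted p = 0.0623) and 0.094 in the CR animals alone (exact permutation p = 0.778, adjusted p = 0.907).

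The pair HSPH1 and HSPA8 had r = 0.37 (permutation p = 0.214, adjusted p = 0.499) and rho = 0.19 (permutation p = 0.530, adjusted p = 0.734), with r = 0.26 without the 2 farthest animals and 0.54 in CR animals alone. For HSPH1 and DNAJB1 r was 0.21 (permutation p = 0.494, adjusted p = 0.666) and rho 0.19 (permutation p = 0.528, adjusted p = 0.734), with r = 0.10 without the 2 farthest animals and 0.21 in CR animals alone. For HSPH1 and DNAJA1 r was 0.062 (permutation p = 0.842, adjusted p = 0.842) and rho 0.082 (permutation p = 0.794, adjusted p = 0.794), with r = -0.022 without the 2 farthest animals and -0.17 in CR animals alone. HSPH1 and HSP90AA1 ran the other way, with r = -0.24 (permutation p = 0.419, adjusted p = 0.666) and rho = -0.34 (permutation p = 0.256, adjusted p = 0.596), and with r = -0.45 without the 2 farthest animals and -0.27 in CR animals alone. The TRiC subunits CCT2 and CCT8 had r = -0.18 (permutation p = 0.571, adjusted p = 0.666) and rho = -0.15 (permutation p = 0.629, adjusted p = 0.734), with r = 0.026 without CR replicate 6 and control replicate 5 and 0.045 in CR animals alone. The 5 controls are too few for a value of their own.

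Co-chaperones and heat shock factors outside the members were taken from a list of 44 genes, of which 36 were measured and 35 tested. The signal was higher in CR for 22 of 35 (62.9%), with a median difference of 0.081. The background was 48.1% of all probe sets tested and 49.8% of genes taken by their brightest probe set. In limma 0 passed the test (background 0%), and 0 had an unadjusted p under 0.05, where the background was 2.43% of probe sets. The signal of AHSA1, the activator of the HSP90 ATPase, was 3262 to 4928 with a median of 4625 in the 8 CR animals, against 4769, 3918, 2416, 2346 and 4426 in the 5 control animals. Control replicates 3 and 4 lay below every CR animal, and the difference was 0.34 ± 0.19 (unadjusted p = 0.0928 and adjusted p = 0.999 from limma). HSPBP1, an exchange factor of HSP70, differed by 0.31 ± 0.22, SERPINH1, the collagen chaperone HSP47, by 0.23 ± 0.17 and PFDN6, a prefoldin subunit that hands clients to TRiC, by 0.20 ± 0.15. AHSA1 differed by 0.21 without control replicate 3 and 0.20 without control replicate 4. HSPBP1 differed by 0.13 without control replicate 3, 0.19 without control replicate 4 and 0.47 without control replicate 1. SERPINH1 differed by 0.13 without control replicate 1, 0.13 without control replicate 2 and 0.0026 as the mean of its probe sets.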

How the data were processed

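Biotinylated cRNA from total RNA was hybridised to the arrays, per the labels' protocols. The deposited intensity values are MAS5 signals on a linear scale, per the submitters' processing notes, with no version named. All arrays share a 2% trimmed mean of 500, so a change common to most transcripts of 1 animal is scaled away. After removal of 99 control probe sets, 137 values were raised to a floor of 1, signals were log2 transformed, and the dimmer 50% of probe sets were left out (26383 kept, mean signal at least 107). The platform annotation gave 24956 probe sets 1 symbol, 361 several and 27449 none.

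Diets were compared with limma 3.58.1 (lmFit, eBayes with trend; R 4.3.3), two-sided and adjusted over all probe sets. The members, lists and tests were chosen with earlier results of these data known. Named genes were a set list, the 2 lowest p per family, the 4 largest differences each way, the 3 largest and smallest residual SDs and 4 co-chaperones by p; the other members are named to account for all. Correlations used 100000 permutations in scipy 1.17.1 (exact for 8 animals), and both genes were measured for 7 of 14 chosen pairs. The test was also run on simulated data. Of the members tested, 3 rest on probe sets marked as shared by transcripts. Alternatives were median centring, quantile normalization, no filter, an offset of 16, eBayes without trend, array weights, RNA quality covariates, the replicate block, the mean of probe sets and each animal left out. Batches are not recorded in the labels.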

Additional observations from a re-analysis of the deposited data

Results flagged for a closer look

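Within each diet, animals far from the rest were sought for the 48 tested members, on log2 signals. This gave 4 cases in 96 groups, where about 1 in 20 is met by chance (4.80 groups). Control replicate 4 was the highest control for HSPA12A, at 10.80 (other controls 9.85 to 9.93), and for HSPA12B, at 10.27 (other controls 8.60 to 9.04). The same animal was the lowest control for DNAJB5, at 10.30 (other controls 11.25 to 11.63). CR replicate 6 was the lowest CR animal for HSPA6, at 6.84 (other CR animals 7.43 to 7.85).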

How the results depend on the processing

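No member passed limma's test in any alternative (lowest adjusted p = 0.903), and family medians moved by less than their SD between animals, though several by over 1.5 times: under the 9 alternatives that keep all animals they ran from 0.12 to 0.27 for HSP90, 0.046 to 0.17 for HSP70 and HSP110, 0.095 to 0.29 for small HSP, 0.11 to 0.41 for DNAJA, 0.042 to 0.26 for DNAJB, 0.026 to 0.093 for DNAJC and 0.10 to 0.20 for TRiC/CCT. Under the same alternatives, the count of members higher in CR ran from 32 with the RNA quality ratios as covariates to 41 of 55 without the filter. The count at an unadjusted p under 0.05 was 2 without the filter (background 3.38% of probe sets), 3 with the RNA quality ratios (2.65%) and 2 with the replicate block (1.47%). Animals with the same replicate number showed no sign of pairing: their deviations correlated at -0.20 to 0.020 over the 5 shared numbers. The block left 389 probe sets at an unadjusted p under 0.05, against 641 without it. These counts cannot decide on pairing, since the block adds coefficients to a small fit and would lower the count either way. Of 52 single genes, 32 kept their direction in these alternatives. Signs turned, with the cause not tested, under quantile normalization (0.019 for DNAJC11, 0.018 for DNAJC16 and 0.013 for DNAJC27), median centring (0.0031 for DNAJC10, 0.036 for DNAJC11, 0.026 for DNAJC16 and 0.013 for DNAJC27), array quality weights (-0.036 for DNAJA3, -0.018 for DNAJA4, -0.018 for DNAJB6, 0.012 for DNAJC11, 0.033 for DNAJC27, 0.016 for HSPA12A and 0.10 for HSPA12B), the RNA quality ratios (-0.016 for DNAJA3, -0.094 for DNAJA4, -0.034 for DNAJB6, 0.053 for DNAJC16, 0.019 for DNAJC27, -0.14 for DNAJC4 and -0.13 for TCP1), the replicate block (-0.017 for DNAJA3, 0.10 for DNAJB4, -0.10 for DNAJB6, 0.027 for DNAJC10, -0.0097 for DNAJC5B, -0.059 for HSP90AA1 and 0.029 for HSPA12A) and averaging over each gene's probe sets (-0.013 for CCT6A, -0.15 for DNAJA4, -0.42 for DNAJB14, 0.062 for DNAJC11, 0.11 for DNAJC13, 0.30 for DNAJC16, -0.31 for DNAJC5B, 0.27 for DNAJC8, -0.088 for DNAJC9 and 0.24 for HSPA9). Averages over a gene's probe sets include dim ones left out of the test. DNAJB14, DNAJC13, DNAJC16, DNAJC5B, DNAJC9 and HSPA9 each had such dim probe sets. Both tested probe sets of DNAJB14 were higher in CR (0.14 and 0.025), and both of DNAJC16 were lower (-0.014 and -0.055). The HSPH1 and DNAJA1 correlation turned to -0.022 without the 2 farthest animals and to -0.17 in CR animals alone, and that of CCT2 and CCT8 to 0.026 and 0.045. With each animal left out in turn, 31 to 37 members were higher in CR, 0 to 4 were at an unadjusted p under 0.05 and 0 to 1 probe sets passed (1 without control replicate 1 and 1 without control replicate 5, neither of a member), and the median over members ran from 0.073 to 0.22. Family medians ran from 0.068 to 0.36 for HSP90, 0.024 to 0.16 for HSP70 and HSP110, 0.046 to 0.37 for small HSP, 0.026 to 0.41 for DNAJA, 0.023 to 0.19 for DNAJB, 0.014 to 0.14 for DNAJC and 0.092 to 0.25 for TRiC/CCT. Of the 52 genes 34 kept their direction, and the others ran from -0.047 to 0.26 for CCT7, -0.11 to 0.17 for DNAJA3, -0.19 to 0.44 for DNAJA4, -0.11 to 0.45 for DNAJB14, -0.17 to 0.069 for DNAJB4, -0.13 to 0.16 for DNAJB6, -0.14 to 0.12 for DNAJC10, -0.068 to 0.12 for DNAJC11, -0.11 to 0.0033 for DNAJC13, -0.17 to 0.13 for DNAJC16, -0.23 to 0.077 for DNAJC27, -0.039 to 0.18 for DNAJC4, -0.072 to 0.17 for DNAJC5B, -0.015 to 0.36 for HSP90B1, -0.14 to 0.10 for HSPA12A, -0.18 to 0.24 for HSPA12B, -0.090 to 0.50 for HSPB7 and -0.10 to 0.38 for TCP1. Median centring moved the share of all probe sets higher in CR to 54.6%. No detection call was used, so how far the dim genes HSPA6 and DNAJC17 lay above background is unknown.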
